A study of Mus musculus with 76 samples.

Results

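Cytoplasmic ribosomal protein genes encode the proteins of the ribosome, and 84 of them were found among the 56980 mouse Ensembl genes of the count table, 52 for the large subunit and 32 for the small subunit. Members were chosen by gene symbol alone, as *Rps* or *Rpl* followed by a number, plus *Rplp0*, *Rplp1*, *Rplp2* and *Rpsa*, and the rule uses no measured value. Of 90 symbols that matched, 6 were left out because a reference table marks them as pseudogenes, and these held 1831 counts, equal to 0.235% of the members' counts. The marker genes of the set behaved unequally, as *Rps27* was counted in all 76 cells and *Rplp0* in 59.

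The cells were traced hypothalamic Pomc neurons taken by Patch-seq, in which a neuron is first recorded through a glass pipette that afterwards takes up the cell content as input for a library. All 76 cells came from male mice with a tamoxifen-inducible CreERT2 recombinase under *Pomc* promoter elements and a tdTomato reporter. The study's text adds a Pomc-eGFP transgene in its results and leaves it out in its methods. Tamoxifen was given to every mouse at 12 weeks of age, once daily for 5 days by oral gavage, so that cells with an active *Pomc* promoter at that age kept the red label. Cells that also showed Pomc-eGFP at the time of recording were called Pomc+, and cells without it were called Ghost. From 2 weeks after tamoxifen the mice received standard chow (CD) or a high-fat diet (HFD) for 6 months, with 5 mice per diet. The 4 groups held 23 Pomc+ cells on CD, 15 Ghost cells on CD, 19 Pomc+ cells on HFD and 19 Ghost cells on HFD. Both labels rest on promoter activity shown by reporters and not on RNA, and *Pomc* counts were found in 14 of 15 Ghost cells on CD and 18 of 19 on HFD. At least 1 of 7 neuron genes such as *Snap25* and *Syt1* was counted in 74 of the 76 cells.

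The labels name no mouse, so the cells of each label and diet were treated as 1 sample. For that reason no test between groups was possible, and all differences are descriptions of these cells. The depth of a cell lay between 4057 and 1452605 counts, with 322652 as the median, and the group medians were 339691 for Pomc+ on CD, 123528 for Ghost on CD, 393797 for Pomc+ on HFD and 333785 for Ghost on HFD. Only 7 genes were counted in every cell, *Rps27* among them, and these 7 took between 7.64% and 96.0% of the counts of a cell. Most of this was on the identifier ENSMUSG00000119584, with 35.8% of all counts, and on *Lars2*, with 6.73%, while *Rps27* held 0.0362%. Levels are given as counts per 1000000 counts of the cell (CPM), without correction for gene length unless stated. CPM is a share, so a higher value can come from more RNA of a gene or from less RNA of others, and these cannot be told apart.

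Ribosomal proteins fold around the ribosomal RNA to form a small subunit, which reads the mRNA, and a large subunit, which joins the amino acids. Each protein is needed in equal number per ribosome, except for the acidic P-stalk proteins. Their mRNAs typically begin with a C followed by a run of pyrimidines, the 5′ terminal oligopyrimidine (TOP) sequence, through which the mTORC1 pathway controls their translation. mTORC1 is a nutrient sensor that also acts in Pomc neurons, and its S6 kinases phosphorylate the small subunit protein Rps6.

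The start sites of a few members whose values are described below are shown with the pyrimidine run through the annotated start base in capitals. Each line holds 24 bases on the gene's own strand from RefSeq (GRCm38.p6), and the start base is base 13. The first set has the TOP letters at the start and includes the marker *Rps27*, the S6 kinase target *Rps6*, the P-stalk gene *Rplp2*, and *Rpl35*, *Rpl14* and *Rpl15*, which lay far apart in their ratio between labels.
Rps27, chr3:90213637-90213660, minus strand: tccgctttcgCTCCTTTCCggcgg
Rps6, chr4:86857356-86857379, minus strand: cggaagtcgggCCTCTTTTTCgtg
Rplp2, chr7:141447639-141447662, plus strand: gtcagcgTCTTCCTTTCgccgccg
Rpl35, chr2:39005120-39005143, minus strand: ccccgCCCTTTCCTCTTTCTCTCg
Rpl14, chr9:120571505-120571528, plus strand: cgggCCCTCTCTCTTCTCgctgag
Rpl15, chr14:18270975-18270998, minus strand: ggagaaagCCTTCTTCCTTTCCTC
The second set has no pyrimidine at the annotated start base and includes the marker *Rplp0*, the abundant *Rpl41*, and *Rpl5*. *Rpl5* was higher in Ghost cells in the 6 runs of cell numbers, described further on, with at least 3 cells of each label.
Rplp0, chr5:115559455-115559478, plus strand: ttcgggtttcgaggaccgcctggt
Rpl41, chr10:128549157-128549180, minus strand: acgggccggctcggaagtgacgac
Rpl5, chr5:107900516-107900539, plus strand: cacgtcgcttgcgtgctggtggtg

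RefSeq windows of 250 bases before to 50 bases after the start were at hand for 64 of the 84 members, as 76 windows because some genes have several starts. A C at the start followed by 4 bases that are each C or T, searched on the gene's strand only, was present in 13 of the 76 windows (17.1%) and in 823 of all 32851 mouse windows (2.51%). When the start was allowed to lie up to 5 bases away on either side, 40.8% of the members' windows and 18.3% of all windows held it. The annotated base can miss the used start by a few bases, so a window without the letters says nothing of the mRNA.

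Ribosomal protein genes took a larger share of the counts in Ghost than in Pomc+ cells. By the mean over cells the gap was wider on CD than on HFD, though not with counts summed over cells. On the normalized counts that the authors deposited, the members were summed without dividing by a total, so the values are levels and not shares. The ratio of these mean levels on CD was 0.924, while the median was higher in Ghost (5565) than in Pomc+ cells (3911). The members held 779300 of 32910186 counts, 2.37% of the total. On CD, the share in Pomc+ cells had a lowest value of 0.163%, a median of 2.04% and a highest of 4.44%, with a mean of 2.08 ± 0.934% (SD over 23 cells). Ghost cells on CD lay between 1.17% and 6.06%, with a median of 3.57% and a mean of 3.52 ± 1.49% (SD over 15 cells). The ranges overlapped, but 12 of 15 Ghost cells lay above the Pomc+ median and 4 above the highest Pomc+ cell. The Ghost mean was 1.44 percentage points higher, a ratio of 1.69.

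On HFD the same comparison gave a smaller difference within wide ranges. Pomc+ cells on HFD spanned 0.752% to 6.39% with a median of 1.95% and a mean of 2.25 ± 1.38% (SD over 19 cells). Ghost cells on HFD spanned 0.928% to 5.68% with a median of 2.39% and a mean of 2.88 ± 1.52% (SD over 19 cells). The ratio was 1.28, a difference of 0.633 points, which is under the SD of either group, and the highest single cell was a Pomc+ cell. Across both diets the means were 3.16% and 2.16%, with 26 of 34 Ghost cells above the Pomc+ median and a ratio of 1.47. Whether the ratio differs between diets could not be tested.

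Between diets, the difference in the share had opposite signs under the labels. In Ghost cells the HFD mean was 0.819 times the CD mean, and 6 of 19 HFD cells lay above the CD median. In Pomc+ cells it was 1.08 times the CD mean, with 9 of 19 HFD cells above the CD median. That ratio was 0.969 when the single cell numbered 693 was left out. For the members' summed normalized counts, a level and not a share, the ratio of means was 0.662. There the medians went the other way, with 5733 on HFD and 3911 on CD, and Pomc+ cell 631 on CD reached 35497. The plot of the share by group shows the overlap of the groups.

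**Figure D1:**
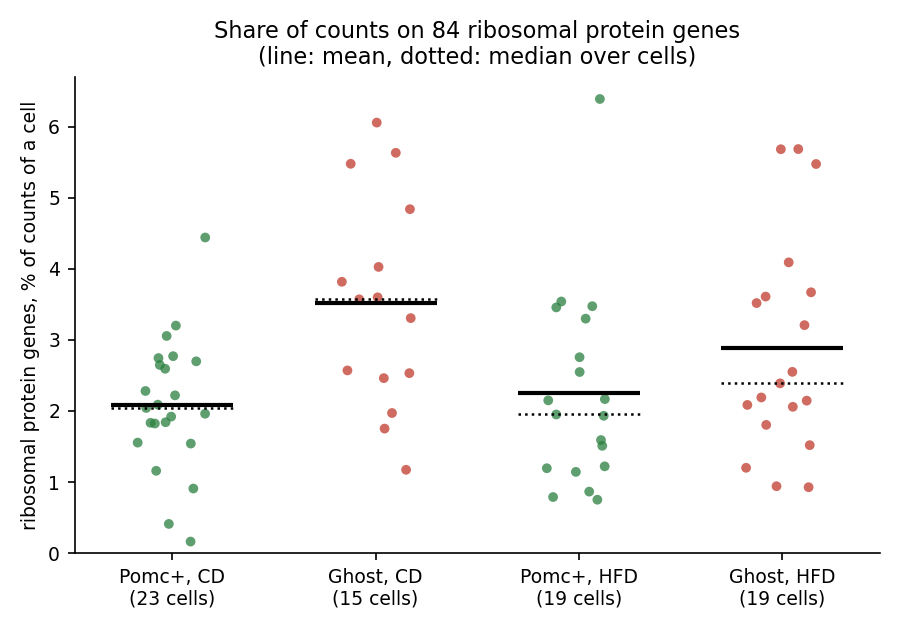
Percent of a cell's counts on the 84 ribosomal protein genes (y axis) for every cell of the 4 groups (x axis), with the mean as a solid line and the median as a dotted line. Ghost means of 3.52% on CD and 2.88% on HFD lie above Pomc+ means of 2.08% and 2.25%, and all groups overlap. For summed normalized counts, which are not shares and not plotted, the CD ratio of means was 0.924.

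Summing the counts of a group before dividing gave closer values, because deep cells then weigh more. The pooled share was 2.49% (95% Clopper-Pearson interval 2.48–2.50) in Pomc+ and 2.73% (2.71–2.74) in Ghost cells on CD. On HFD it was 2.0% (1.99–2.01) in Pomc+ and 2.40% (2.39–2.41) in Ghost cells. The intervals cover counting error only, since reads copied by PCR are not independent molecules. The order of labels stayed the same and HFD was lower than CD in both, but the gap between labels was then wider on HFD than on CD.

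The share was also set against other measures of each cell. With the 7 genes of all cells left out, the mean shares were 4.18% and 7.30% on CD and 4.62% and 6.26% on HFD, for Pomc+ and Ghost cells in that order. The label ratios were then 1.75 on CD and 1.35 on HFD. As a share of protein-coding counts outside the mitochondrial genome, the means were 3.55% and 6.19% on CD and 3.97% and 5.24% on HFD. In each form the Ghost means were the higher ones.

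The diet difference between labels was less even when cells were split by the number of genes counted. Among cells with fewer genes counted than the median of 2670.5, Ghost against Pomc+ gave 2.22 on CD and 0.943 on HFD. These ratios rest on 7 Ghost and 12 Pomc+ cells on CD and on 12 and 7 on HFD. The 7 Pomc+ cells on HFD included cell 693, with 743 genes and the highest share of all cells, 6.39%. Among the other cells the ratio was 1.29 on CD (8 and 11 cells) and 1.61 on HFD (7 and 12 cells). Over both diets it was 1.45 with fewer genes and 1.44 in the other cells. The higher share in Ghost cells over both diets was thus as large in either part, while the wider gap on CD was present only with fewer genes counted.

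Cell numbers in the labels run in blocks of 1 diet, and the label ratio differed between these blocks. On CD, cells 630 to 636 had means of 3.08% in Pomc+ and 2.60% in Ghost cells, a ratio of 0.844. Cells 658 to 669 had 2.32% and 4.48%, a ratio of 1.93, and the lowest Ghost cell, at 3.57%, lay above the highest Pomc+ cell, at 3.20%. Cells 684 to 692 had 1.97% and 4.0% and cells 699 to 712 had 1.52% and 2.76%, ratios of 2.04 and 1.81. The higher Ghost share on CD was thus seen in all blocks but the lowest-numbered.

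On HFD, the blocks with at least 3 cells of each label gave small ratios, 1.23 for cells 637 to 657 (1.93% and 2.37%) and 1.05 for cells 713 to 720 (2.26% and 2.37%). Cells 693 to 698 stood apart with high shares under both labels, 6.39% in the only Pomc+ cell and 4.59% as the mean of 4 Ghost cells. In cells 670 to 673 the single Ghost cell had 3.21% and the 3 Pomc+ cells a mean of 1.92%. Whether a block is a mouse, a day or an experiment is not given by the labels.

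**Figure D2:**
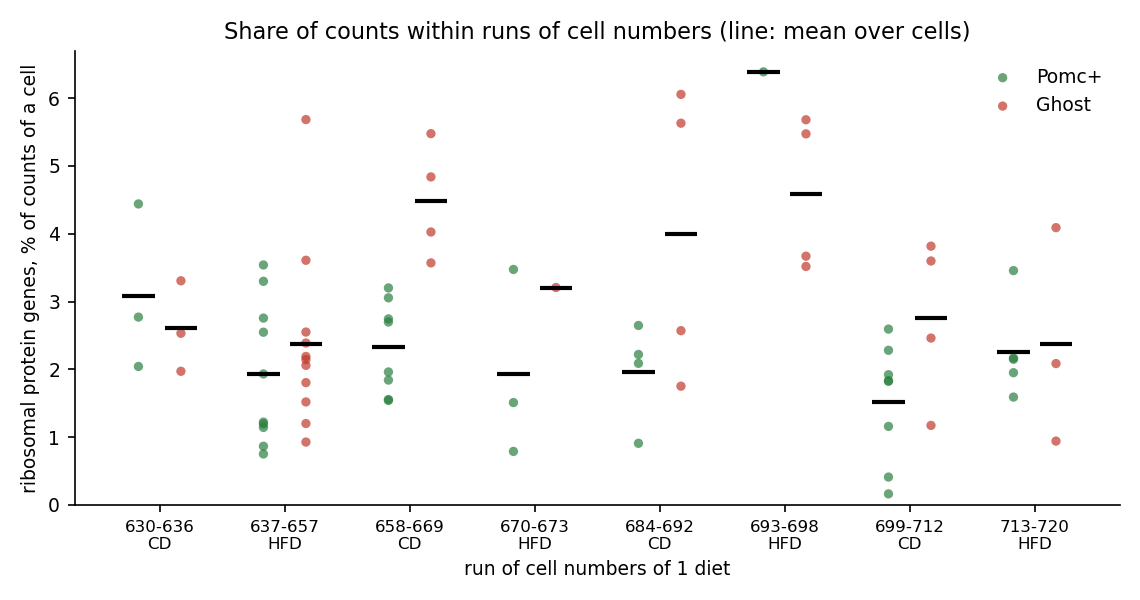
Percent of a cell's counts on ribosomal protein genes (y axis) in each run of cell numbers of 1 diet (x axis), with Pomc+ and Ghost cells side by side, 1 point per cell and the mean as a line. In 3 of the 4 CD runs the Ghost mean is higher, with ratios from 1.81 to 2.04, and in cells 630 to 636 it is lower, at 0.844.

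Nearly all detected members contributed to the higher Ghost share. Comparisons of single genes used the 75 members with a count in at least 38 cells, 45 of the large and 30 of the small subunit. Over both diets 73 of these 75 had a higher mean CPM in Ghost cells, where 51% of the 1583 genes with a count in at least 38 cells did. On normalized counts it was 45 of 75, beside 22% of those genes. The median log2 ratio was 0.57 for the members and 0.013 for those genes. A looser filter, 5 counts or more in at least 3 cells, kept 79 members, of which 75 were higher in Ghost cells, beside 44.4% of all genes it kept. The differences were small per gene, as 2 members reached 2-fold higher (4.11% of all genes counted as widely did) and 0 reached 2-fold lower (5.43%).

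On CD 73 of 75 members were higher in Ghost cells in CPM (50.8% of all) and 26 of 75 on normalized counts (16.6% of all), with a median log2 ratio of 0.72 in CPM, and 14 of them were at least 2-fold higher (9.98%) and 0 at least 2-fold lower (10.4%). Under the looser filter it was 74 of 79 (48.1%). On HFD 61 of 75 were higher (51%) and 57 of 75 on normalized counts (42.8%), with a median of 0.41 in CPM, and 4 were at least 2-fold higher (9.54%) and 0 at least 2-fold lower (11.2%). Under the looser filter it was 63 of 79 (43.6%). The subunits were alike, as all 30 small subunit genes and 43 of 45 large subunit genes had a higher mean CPM in Ghost cells on CD. On HFD these numbers were 23 of 30 and 38 of 45.

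Between diets the direction of the members in Pomc+ cells depended on the scale. There 46 of 75 had a higher mean CPM on HFD (47% of all genes) and 4 of 75 a higher normalized count (26.3% of all genes), with a median log2 ratio of 0.11 in CPM, 1 at least 2-fold higher (7.39%) and 0 at least 2-fold lower (7.96%). Under the looser filter 47 of 79 were higher (54%). In Ghost cells 17 of 75 were higher on HFD (46.9%), and 32 of 75 on normalized counts (57.5%), so that 58 of 75 were lower in CPM, with a median of -0.24, beside -0.06 over all genes. In Ghost cells 3 members were at least 2-fold lower on HFD, where 10.9% of all genes were, and 0 were at least 2-fold higher, where 9.41% of all genes were. Under the looser filter 20 of 79 were higher on HFD (48.1%). The comparisons share groups, and their values are therefore not independent of each other.

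**Figure D3:**
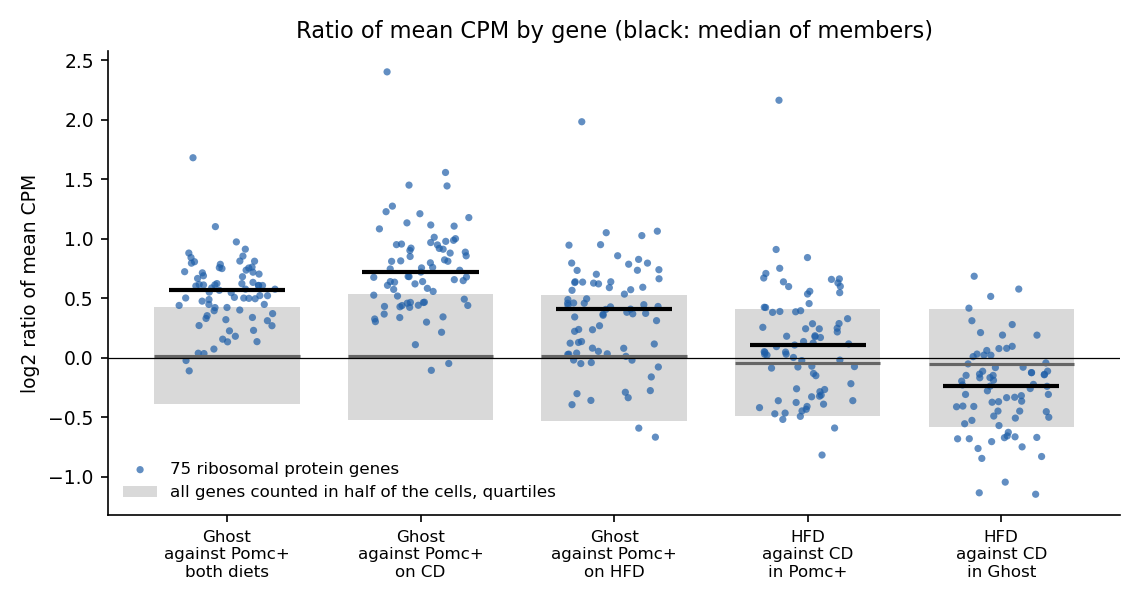
Log2 ratio of mean CPM (y axis) of the 75 widely counted ribosomal protein genes, 1 point per gene with the median in black, for 5 comparisons (x axis), over grey boxes that span the quartiles of all 1583 genes counted in at least 38 cells. The members' medians are 0.57, 0.72 and 0.41 for Ghost against Pomc+ over both diets, on CD and on HFD, and 0.11 and -0.24 for HFD against CD in Pomc+ and Ghost cells, and on normalized counts the CD and the Pomc+ diet medians were -0.09 and -0.52.

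Counts by direction depended on the scale, while the members' place among all genes differed less for Ghost against Pomc+. In the normalized counts, the size factor of each cell equals the median ratio over the 7 genes counted in every cell. On that scale the median log2 ratio of all 1583 genes was -0.47 for Ghost against Pomc+ over both diets and -0.75 on CD. The members' medians were 0.07 and -0.09, so that 45 of 75 were higher in Ghost cells over both diets and 26 of 75 on CD. With the median of all genes as the reference, the members were higher in Ghost cells by 0.55 (log2) in CPM and 0.53 in normalized counts over both diets. On CD these differences were 0.70 and 0.66, and on HFD 0.39 and 0.46. For HFD against CD they were 0.15 and -0.06 in Pomc+ cells and -0.18 and -0.25 in Ghost cells.

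The same count was made within blocks. In cells 658 to 669, 70 of 75 members were higher in Ghost cells (49.8% of all genes), and in cells 684 to 692 it was 67 of 74 (59.2%). In cells 699 to 712 it was 56 of 75 (59.6%), and in cells 637 to 657 it was 50 of 75 (58.6%). In the blocks of the lowest and highest numbers the count was 24 of 75 (19.3%) and 35 of 75 (26.7%), where most genes were lower in Ghost cells. *Rpl21*, *Rpl5* and *Rps26* were among the members higher in Ghost cells in all 6 blocks that hold at least 3 cells of each label, 4 of 75 members beside 0.948% of all genes. In several of these blocks most members were higher in Ghost cells, so some members in all 6 are to be expected. The count therefore does not single out these genes as steady. No member was higher in fewer than 2 of the 6, where 2.91% of all genes were higher in 0 and 13.7% in 1.

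Per kilobase of annotated exons, *Rplp1* had the highest mean over all 76 cells with 842 CPM per kilobase. Next came *Rpl36* with 678, *Rpl41* with 593, *Rps3a1* with 583 and *Rps29* with 579, while *Rpl3* stood at 372. The length joins the exons of all annotated transcripts of a gene and can exceed that of the mRNA present. The order therefore depends on the annotation. Without correction for length, the members that gave the most counts by mean CPM included *Rpl3* (1180.1), *Rpl41* (693), *Rps3* (668) and *Rps19* (636). Below these stood *Rps14* (597), *Rpl21* (589), *Rpl8* (579), *Rpl14* (578) and *Rps3a1* (570). No single gene dominated a cell, as the leading member took a median of 5.93% of the members' counts, and *Rpl3* was the leading member in 34 of 76 cells.

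*Rpl3*, a core protein near the site of peptide bond formation, had a higher mean CPM in Ghost cells mainly on CD, though not a higher normalized count. Its gene lies at chr15:80077791-80091868 on the minus strand (GRCm38). On CD, Pomc+ cells spanned 0 to 3372 CPM (median 715) and Ghost cells 0 to 4149 CPM (median 1600). On HFD, Pomc+ cells spanned 0 to 3512 CPM (median 875) and Ghost cells 0 to 3532 CPM (median 812). Ghost cells on CD were the high group, and the other groups lay close together. The ratios of mean CPM were 1.89 on CD (1715 and 905) and 1.06 on HFD (1167 and 1104), and in normalized counts the CD ratio was 0.808.

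*Rps27*, a zinc-finger protein of the small subunit, lies at chr3:90212522-90213651 on the minus strand. On CD its lowest, median and highest values were 46.9, 314 and 913 CPM in Pomc+ cells and 230.2, 599 and 1332 CPM in Ghost cells. On HFD they were 78.4, 326 and 2563 CPM in Pomc+ cells and 37.7, 374 and 1272 CPM in Ghost cells. Ghost cells on CD again had the highest median, and the highest cell of all was the Pomc+ cell numbered 693. The ratio was 1.75 on CD and 1.06 on HFD. On HFD the ratios of *Rps27*, *Rpl3* and *Rps6* were near 1 and changed side without a single cell, to 0.963, 0.938 and 1.19. Leaving out Pomc+ cell 693 moved *Rps27* the other way, as its ratio over both diets was 1.36 with that cell and 1.56 without it. As *Rps27* is among the 7 genes behind the deposited size factors, its normalized values are tied to that scale.

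Other highly counted members followed with smaller or larger gaps. *Rpl41*, the smallest ribosomal protein, had mean CPM of 557 and 980 in Pomc+ and Ghost cells on CD and 607 and 716 on HFD. *Rps3*, which lines the mRNA entry channel, had 449.7 and 968 on CD, a ratio of 2.15, and 652 and 709 on HFD. *Rps19*, a small subunit gene mutated in Diamond-Blackfan anaemia, had a ratio of 1.60 over both diets. *Rpl14* had 1.63, *Rpl21* 1.65 and *Rps3a1* 1.65, all above the ratio at the median of the set, 1.48.

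*Rps14* and *Rpl8* differed in how the diets compared. *Rps14* had ratios of 1.56 on CD and 1.81 on HFD, so that its gap was the larger on HFD. *Rpl8* had 1.55 on CD and 0.947 on HFD, but the HFD ratio was 1.201 without Pomc+ cell 693, and in normalized counts the ratios were 0.748 and 1.08. *Rpsa*, the small subunit protein first described as a laminin receptor precursor, had 443 and 691 CPM on CD and 420.1 and 589.6 CPM on HFD, ratios of 1.56 and 1.40.

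The P-stalk, which recruits elongation factors to the ribosome, was made of genes with unequal patterns. *Rplp1* and *Rplp2*, its outer acidic proteins, had ratios of 1.54 and 1.61 over both diets. *Rplp2* had mean CPM of 268 and 519 on CD, where all 15 Ghost cells had a count and 19 of 23 Pomc+ cells did. *Rplp0*, their anchor, lies at chr5:115559467-115563727 on the plus strand. On CD it spanned 0 to 739 CPM (median 148) in Pomc+ and 0 to 947 CPM (median 106) in Ghost cells. On HFD it spanned 0 to 1234 CPM (median 150.3) and 0 to 1499 CPM (median 177). The labels were close for *Rplp0*, with ratios of 0.967 on CD and 1.01 on HFD. The HFD means were 1.37 times the CD means in Pomc+ and 1.43 times in Ghost cells, and 0.916 and 1.29 times in normalized counts.

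*Rps6*, the S6 kinase target, lies at chr4:86854660-86857412 on the minus strand. On CD, Pomc+ cells lay between 0 and 812 CPM (median 215) and Ghost cells between 0 and 4930 CPM (median 453). On HFD the medians were 318 in Pomc+ and 314 in Ghost cells, with highest values of 1899 and 2056. Labels differed on CD and lay close on HFD, with ratios of 2.94 and 0.972. The highest Ghost cell, numbered 712, stood far above the rest, and the CD ratio was 1.80 without it. In normalized counts the CD ratio was 1.04.

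*Rpl5*, which with Rpl11 can bind and inhibit Mdm2, had medians of 109 and 162 CPM on CD and 76.7 and 132 CPM on HFD, for Pomc+ and Ghost cells. The Ghost medians were higher under both diets, and the ratio of means was 1.96 over both diets, and the CD ratio in normalized counts was 0.916. *Rpl35*, at the exit of the peptide tunnel, had the highest ratio over both diets, 3.21, from low levels with medians of 16.8 and 35.3 CPM on CD and 21.9 and 26.1 CPM on HFD. Its highest cell, Ghost cell 657 on HFD at 620.2 CPM, carried much of this, and the HFD ratio was 3.95 with it and 2.37 without it. Of its exons 66.2% overlap other genes, *Arpc5l* and *Wdr38*, so its level is uncertain.

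A few members had ratios near or below 1. *Rpl34*, of the large subunit, had mean CPM of 219 and 293 on CD and 274 and 173 on HFD, for Pomc+ and Ghost cells, ratios of 1.34 and 0.630. *Rpl15*, also of the large subunit, had ratios of 0.929 on CD and 0.984 over both diets, which both came to 1.08 without Pomc+ cell 631. *Rpl22*, an RNA-binding protein that ribosomes can lack, gave the most uneven values. It was counted in 43 cells, with medians of 10.03 and 55.9 CPM on CD and 38.03 and 0 CPM on HFD. Its mean CPM was high in Ghost cells on CD (106) and in Pomc+ cells on HFD (90.0) and lower in Ghost cells on HFD (59.7) and Pomc+ cells on CD (20.1).

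**Figure D4:**
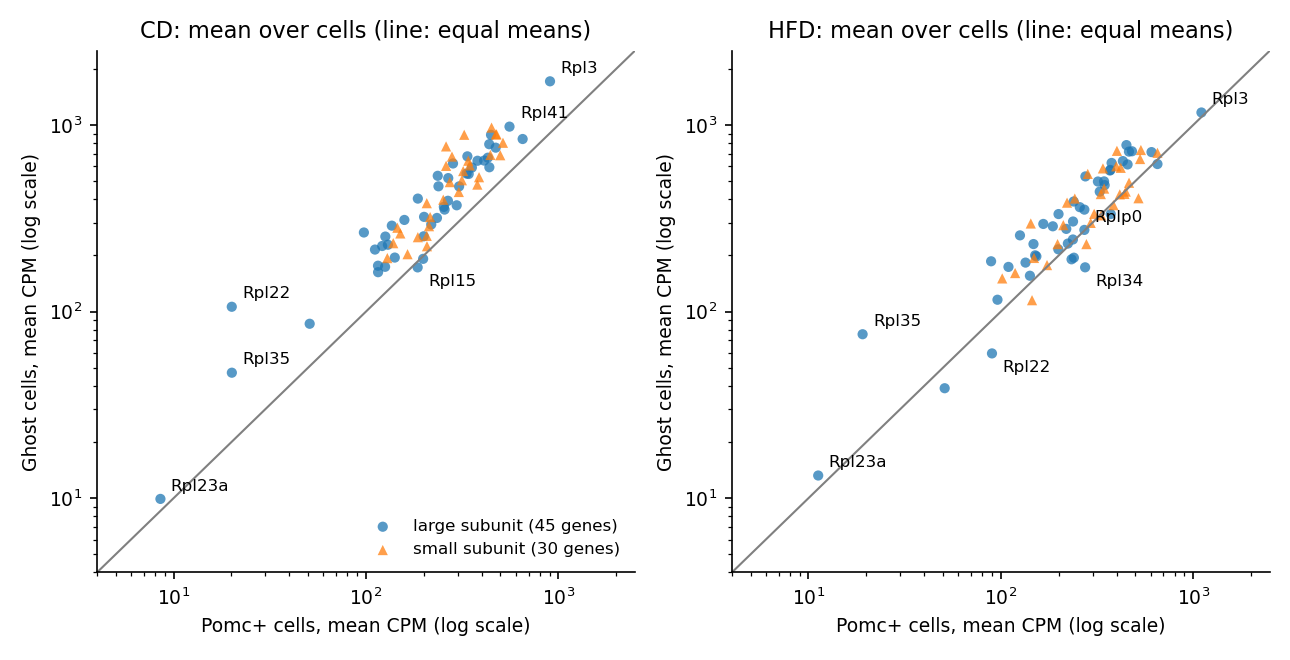
Mean CPM of 75 ribosomal protein genes in Pomc+ cells (x axis, log scale) against Ghost cells (y axis, log scale), on CD (left) and HFD (right), with circles for the large and triangles for the small subunit and a line at equal means. On CD 73 of 75 genes lie above the line (26 of 75 on normalized counts, beside 16.6% of all genes) and on HFD 61 of 75, where *Rpl34* and *Rpl22* lie below it.

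Other members at the ends of the diet comparisons were as follows. In Pomc+ cells *Rps9*, of the small subunit, had a mean of 283 CPM on HFD and 499 CPM on CD, the lowest ratio (0.567), and *Rpl19* also lay low (0.698). At the upper end stood *Rpl22* (4.48), *Rpl27* (1.88) and *Rpl27a* (1.79), and *Rpl27a* came to 1.04 without cell 693. In Ghost cells *Rpl22l1* (0.451) and *Rps18* (0.484) were among the lowest, and the highest were *Rpl35* (1.61), *Rps7* (1.49) and *Rplp0* (1.43). *Rpl35* came to 0.964 without cell 657. On HFD the mean of *Rpl39* in Ghost cells was 2.09 times that in Pomc+ cells.

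Paralogs of ribosomal proteins, near copies at other loci, did not all share the direction of their parent genes. *Rpl22l1* had ratios of Ghost to Pomc+ of 1.69 on CD and 0.761 on HFD, and *Rpl22* had 5.29 and 0.663. Without Pomc+ cell 693 the HFD ratio of *Rpl22l1* was 1.02, and in normalized counts that of *Rpl22* was 1.23. *Rps27l*, which p53 induces, was counted in 37 cells and had a ratio of 0.754 over both diets, where *Rps27* had 1.36. *Rpl7l1* was counted in 17 of 42 Pomc+ and 6 of 34 Ghost cells and had a ratio of 0.241, where *Rpl7* had 1.84. *Rps27l* and *Rpl7l1* thus stood on the other side of equality from their parents in CPM. *Rpl36al* was counted in 3 cells, beside ratios of 1.73 for *Rpl36a* and 1.75 for *Rpl39* and *Rpl10*.

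*Rpl10l*, *Rpl39l* and *Rpl3l* had no count in any cell. The first 2 are known from the testis and the last from muscle. With 0 of 32910186 counts, up to 3 counts, or 0.0912 CPM, are allowed. Other members were low, some of them with sequence shared with other genes. *Rpl24* had a single count, and 80.1% of its transcript's windows of 100 bases are also found in other annotated genes. *Rps10* was counted in 7 cells and *Rpl13a* in 33. *Rpl23a* had a mean of 10.7 CPM, with 80.0% of its windows shared. Ribosomal protein genes have many processed copies in the genome, and 300 pseudogene entries with their symbols held 8742 counts, 1.12% of the members' counts. This is a share over all members and sets no bound on the uncertainty of a single member.

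The number of members with a count had similar medians in the groups before depth was matched. The medians were 73 for Pomc+ and 74 for Ghost cells on CD and 73 for both on HFD, with a range over cells of 18 to 79. At an equal total of 40000 counts, which leaves out 8 cells, the expected medians were 70.5 and 71.8 on CD and 69.9 and 72.1 on HFD. At 10000 counts outside the 7 genes they were 64.4 and 68.8 on CD, in 20 and 14 cells, and 64.6 and 65.7 on HFD, in 18 cells of each label. Of all members, 30 were counted in at least 70 cells. The ratio of large to small subunit counts had medians of 1.34 and 1.28 on CD and 1.40 and 1.38 on HFD, and it ranged from 0.737 to 1.96 over cells, so the groups were within the spread of cells.

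Members varied together from cell to cell. Spearman's rho of a member's CPM with the summed CPM of the others was above 0 for 75 of 75 members over the 76 cells, from 0.117 to 0.817 with a median of 0.563. The highest were *Rpl41* (0.82), *Rpl37a* (0.78), *Rps19* and *Rpl37* (0.75 each), and the lowest *Rplp0* and *Rpl22* (0.117 each) and *Rpl15* (0.19). Over pairs of members the median rho was 0.350, beside 0.207 over pairs of other genes counted as widely and 0.119 between members and other genes. A rho above 0 was common in these data. It was found in 99.0% of pairs of members, 90.1% of pairs of other genes and 78.5% of pairs of a member with another gene. The 75 of 75 above is to be read beside these shares. Cells share depth and the makeup of their library, so these values are descriptions.

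**Figure D5:**
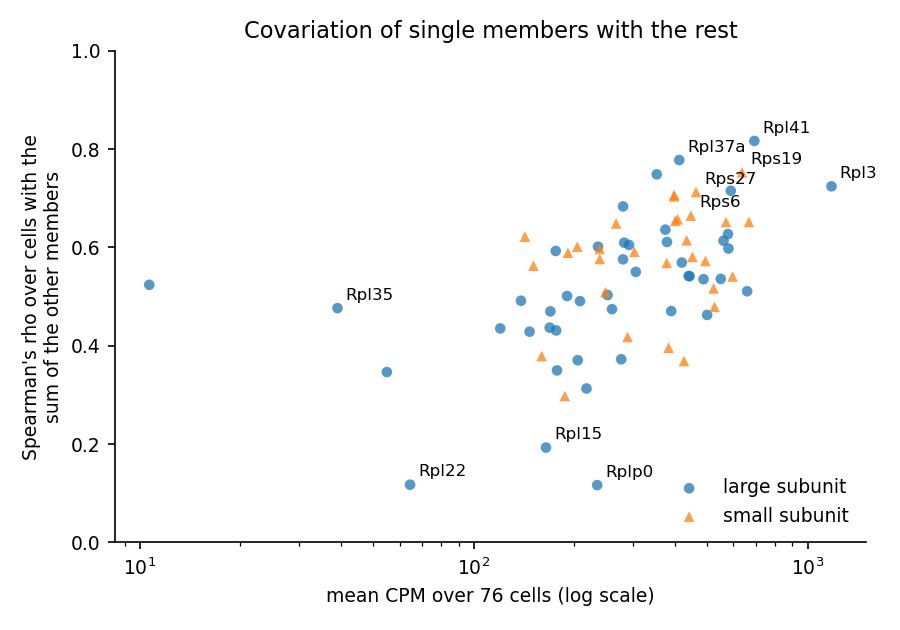
Spearman's rho over 76 cells between each member's CPM and the summed CPM of the other members (y axis) against the member's mean CPM (x axis, log scale), with circles for the large and triangles for the small subunit. All 75 points lie above 0, with *Rpl41* at 0.82 and *Rplp0* and *Rpl22* at 0.117. A rho above 0 was common, as 90.1% of pairs of other genes counted as widely also had it.

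The coefficient of variation of a single member over cells ran from 0.670 for *Rps15* to 1.99 for *Rpl35*, with a median of 0.953, and that of the summed share was 0.540. The share had a rho of -0.20 with total counts, 0.08 within Pomc+ and -0.43 within Ghost cells, and of -0.10 with the number of genes counted. With *Pomc* CPM it had a rho of 0.12. These values depended on the denominator: with the 7 genes left out, the share had a rho of -0.44 with the number of genes counted and of -0.38 with *Pomc* CPM, and as a share of protein-coding counts it had -0.35 and -0.24.

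Of 1508 other genes counted in at least 38 cells, those most like the summed CPM of the members over the 76 cells were *Gm10076* (rho 0.758, a long non-coding RNA), *Rpl3-ps1* (0.718, a pseudogene entry of *Rpl3*) and *Cox7b* (0.646). They were followed by *Eef1a1* (0.604), *Chchd2* (0.592), *Mrfap1* (0.578), *Tmsb10* (0.568), *Gm10736* (0.560, a processed pseudogene), *Cox6b1* (0.558) and *Ndufa2* (0.553). *Cox7b*, *Cox6b1* and *Ndufa2* encode parts of the respiratory chain, and *Eef1a1* the elongation factor that brings aminoacyl-tRNA to the ribosome.

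Genes of the translation machinery with TOP mRNAs lay on the same side in part. Of 18 listed genes, 17 were counted in at least 38 cells, and 12 of these were higher in Ghost cells over both diets (51% of all genes counted as widely), with a median log2 ratio of 0.34. Summed over the list, the share of counts was 0.551% for Ghost and 0.421% for Pomc+ cells (ratio 1.31). *Eef1a1* had 1972 and 1536 CPM in Ghost and Pomc+ cells. *Fau*, which encodes small subunit protein eS30 fused to a ubiquitin-like domain, had 344 and 212 CPM. *Rack1*, a signalling scaffold on the small subunit, had 149 and 99.3 CPM, and *Tpt1* 347 and 285 CPM.

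In this list *Eif3e*, an initiation factor subunit, had the highest ratio (2.7), followed by *Eef2*, the translocation factor (1.63). *Pabpc1*, the poly(A)-binding protein (0.751), and *Btf3* (0.811) had the lowest.

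Genes that build ribosomes were close between labels over both diets, with a summed share over 16 genes of 0.0697% in Ghost cells and 0.0665% in Pomc+ cells. Of these *Ncl*, the nucleolar protein nucleolin, was the only one counted in at least 38 cells and had 142 CPM in Ghost and 208 CPM in Pomc+ cells. The 78 mitochondrial ribosomal protein genes, which serve the separate ribosome of mitochondria, had shares of 0.324% and 0.310%, a ratio of 1.04. Of the 11 counted in at least 38 cells 6 were higher in Ghost cells, from *Mrpl52* (1.80) and *Mrpl41* (1.61) down to *Mrpl23* (0.797) and *Mrpl13* (0.590). The 9 genes with symbols starting *Rps6k*, a list wider than the S6 kinases of mTORC1, had 0.0194% and 0.0268%, a ratio of 0.722. None of them was counted in at least 38 cells. The ratios of these lists differed by diet. For the genes that build ribosomes they were 0.836 on CD and 1.26 on HFD, and for the mitochondrial list 0.918 and 1.16. For the *Rps6k* genes they were 1.42 and 0.396 and for the TOP list 1.34 and 1.30, beside 1.69 and 1.28 for the cytoplasmic members.

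Markers of other cells were present in part of the cells. All 7 neuron genes were counted in each group, with a summed CPM from 0 to 6215 (median 2089) in Pomc+ and 105 to 3852 (median 1117) in Ghost cells on CD. On HFD it spanned 0 to 4223 (median 1775) and 170.2 to 2899 (median 1681). The microglia list, all 8 of whose genes were counted, had medians of 17.2 and 3.98 CPM in Pomc+ and Ghost cells on CD and 279 and 486 CPM on HFD, and reached 2271, 801, 12512 and 6942 CPM. On CD *P2ry12* was at 0 under both labels, and *Csf1r* and *Tmem119* were at 0 in Pomc+ cells. The medians of the microglia list were thus higher on HFD under both labels.

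The other lists were low or uneven. Summed CPM of the 6 astrocyte genes had medians of 62.7 and 19.9 on CD and 142 and 19.8 on HFD. For the 6 oligodendrocyte genes they were 110.3 and 152 on CD and 166 and 304 on HFD. The 4 endothelial genes had a median of 0 in every group. Of 4 tanycyte genes *Rax* was at 0 in every group and *Ccdc153* in every group but Ghost cells on CD. In Pomc+ cells on CD *Col23a1* was at 0 as well, which left only *Vim* there. The Pomc neuron list of 3 genes had medians of 11726 and 4330 CPM in Pomc+ and Ghost cells on CD and of 3811 and 5700 CPM on HFD. On HFD its order by medians was thus opposite to the labels. The HFD means were close, at 5608 CPM in Pomc+ and 5550 CPM in Ghost cells. Across cells the share had a rho of 0.26 with the neuron list, 0.24 with oligodendrocytes, 0.16 with the Pomc neuron list, 0.14 with tanycytes, -0.06 with microglia, -0.05 with astrocytes and -0.04 with endothelial cells. The part of these cells in the shares was not tested.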

How the data were processed

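Content of 76 patched neurons was amplified by the authors with SMART-Seq and sequenced from Nextera XT libraries. The submitters' processing notes name cutadapt 2.10, STAR 2.7.5a, DESeq2 and GRCm38/mm10, and the annotation version is not given in the sources used here. The deposited raw table holds whole-number counts per gene and cell, without normalization and without molecular identifiers. The deposited normalized table holds a signal, the count divided by a size factor of the cell, and this factor equals the median of ratios over the 7 genes counted in every cell in 76 of 76 cells (tolerance 1%).

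Here counts were divided by the total of the cell to give CPM, and the share of the members was averaged over cells with equal weight. Depth ranged from 4057 to 1452605 counts per cell. No cell was left out, and 0 pairs of cells were identical. Doublets were not called, since a pipette takes single cells. Without a mouse in the labels, the cells of a group are 1 sample, and no p-value was made. Intervals and limits cover counting error only. Background shares are over genes with a count in at least 38 cells or, as a looser filter, 5 counts or more in at least 3 cells. Symbols matched 52073 of 56980 identifiers, coordinates and overlaps are from GENCODE M21, and start sites from RefSeq GRCm38.p6. Members and lists were chosen with earlier results of these data known. Named genes are *Rps27* and *Rplp0*, the 10 most abundant members, P-stalk genes, *Rps6*, *Rpsa*, paralogs with their parents, the 3 highest and 3 lowest ratios in each of 5 comparisons, members with no count, and fixed genes or the extremes of related lists. *Rps26*, *Rps15*, *Rpl37*, *Rpl37a*, *Rpl13a*, *Rpl23a*, *Rpl24*, *Rps10*, *Rpl36* and *Rps29* were added after their values were seen. Some genes that this rule covers are not reported here. Alternatives were the normalized counts, medians, summed counts, other denominators, cell filters, blocks and leaving out cells. Python 3.11.15, numpy 2.4.6, pandas 2.3.3, scipy 1.17.1 and matplotlib 3.10.9 were used, and the computation was tested on simulated data.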

Additional observations from a re-analysis of the deposited data

How the results depend on the processing

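Ratios of shares and counts of members over 5 comparisons held their side of equality in most alternatives, of which some were chosen after the data were seen (other denominators, cells split by genes counted, blocks, and leaving out cells 693 to 698). For these results, with the members counted and the subunit ratio per group, 161 alternative values stayed within a set tolerance, 25 turned around and 5 moved. The tolerance was wide, set by the SD over cells or over members, or by a fold for counts of members. A ratio could thus come much closer to equality and still be among the 161. For the members' summed normalized counts, which are levels and not shares, the ratio of means was 0.924 for Ghost against Pomc+ on CD. For HFD against CD in Pomc+ cells it was 0.662. Both comparisons went the other way by medians, with 3911 in Pomc+ and 5565 in Ghost cells on CD and 5733 in Pomc+ cells on HFD. On that scale the members higher in Ghost cells numbered 46 over both diets (of 79, median log2 ratio 0.065) and 27 on CD (median -0.13), and the members higher on HFD numbered 5 in Pomc+ (median -0.53) and 35 in Ghost cells. The share ratio of Ghost against Pomc+ was 0.844 in cells 630 to 636 on CD and 0.943 on HFD in cells with fewer genes than the median. The members' median log2 ratio on CD was 0.12 with summed counts. HFD against CD in Pomc+ cells was the least steady, with a share ratio of 0.955 for medians, 0.804 for summed counts, 0.953 with at least 1000 genes, 0.985 with at least 40000 counts, 0.969 without cells 693 to 698 and 0.745 in cells with at least the median number of genes. Its count of members higher on HFD was 15 (median -0.30) with summed counts, 31 (median -0.066) with at least 1000 genes, 37 (median -0.036) with at least 40000 counts and 37 (median -0.054) without cells 693 to 698. In Ghost cells without that block 11 members were higher on HFD. Leaving out each cell in turn gave share ratios of 1.42 to 1.54 for both diets, 1.60 to 1.78 on CD and 1.21 to 1.43 on HFD for Ghost against Pomc+, and of 0.969 to 1.14 in Pomc+ and 0.775 to 0.863 in Ghost cells for HFD against CD. In Pomc+ cells the lowest value came without cell 693, with 37 to 50 members higher on HFD and a median from -0.054 to 0.16. The cause of these changes was not tested. Group sizes of 15 to 23 cells and totals from 4057 counts limit what can be seen in members of low level. No paired analysis was possible because the cell numbers in the labels are unique to each cell and name no mouse.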
